A study of Homo sapiens with 8 samples.

Results

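The genes described here encode the PI3K-related kinases (PIKKs), a family of very large proteins. The members were taken by symbol from the probe annotation, with all of their probes. Of the 6 genes listed (PRKDC, ATM, ATR, MTOR, TRRAP and SMG1), 5 were measured, by 6 probes out of 14479, whereas ATR was represented by 0 probes. The whole series held 9535 genes with a named probe, these 5 included. HEK293T cells, a line derived from human embryonic kidney, had received 200 pmol of a biotin-carrying duplex of miR-23b or of miR-27a with a lipid reagent. After 24 h, RNA held with the duplex was collected on streptavidin beads (pull-down), and RNA without a pull-down step was the input. For each miRNA there were 2 pull-down arrays and 2 input arrays, 8 Illumina bead arrays in all. No pull-down with a control duplex was analysed here, and every group, inputs included, came from cells that had received a duplex. The labels do not say whether replicates were separate cultures, so the p-values rest on array-to-array spread alone, and part or all of that spread may be technical.

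PIKKs share a kinase domain near the carboxyl terminus that resembles that of lipid kinases, although the active members phosphorylate proteins on serine or threonine. PRKDC, ATM and ATR respond to damaged or stalled DNA, MTOR couples growth to nutrients, SMG1 acts in nonsense-mediated mRNA decay, and TRRAP has lost kinase activity and serves as a scaffold of histone acetyltransferase complexes. A miRNA guides an Argonaute protein to mRNAs largely through its seed, bases 2 to 8 counted from its 5′ end, and a biotin on the miRNA allows the mRNAs held with it to be collected.

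The mature 3p strands of both miRNAs are shown with their seeds in capitals. Whether the mRNAs of the members hold sites for either seed was not tested. The labels give no arm, and the 3p strand is the one usually meant by these names. The sequences are those of RefSeq for GRCh38.p14, at chr9:95085265-95085287 on the plus strand for miR-23b and at chr19:13836447-13836467 on the minus strand for miR-27a.
hsa-miR-23b-3p: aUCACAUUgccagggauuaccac
hsa-miR-27a-3p: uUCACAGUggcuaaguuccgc
The seeds shared 6 of 7 bases and differed by U7G, with positions counted from the 5′ end and the base of miR-23b written first. Over bases 9 to 21, 5 of 13 bases were the same.

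The values are on a log2 scale as deposited, with array medians of 9.09 to 9.12 and array minima of 7.18 to 7.37. A difference between pull-down and input is therefore relative to the rest of the array. It does not show how much RNA was collected in total. Inputs correlated with each other at 0.979 to 0.996, pull-downs at 0.955 to 0.984, and pull-downs with inputs at 0.916 to 0.951. Of 6 genes chosen as typical of HEK293T cells 5 were measured, while PAX2 was not among the probes. VIM (11.84 to 13.43) and LIN28B (11.67 to 13.21) were bright, NEFM (8.68 to 9.54) and NEFL (8.81 to 9.32) lay near the array medians, and IGF2BP1 (7.79 to 8.35) was dim. Of 9 markers of fibroblasts, blood and liver 2 were measured, COL1A1 (7.29 to 8.71) and ALB (7.78 to 8.57), and of these ALB fell with miR-27a, by 0.65.

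PRKDC, the catalytic subunit of DNA-dependent protein kinase, which acts in the joining of broken DNA ends, was the member with the largest rise in both pull-downs. In the miR-23b input its log2 level was 10.62 in replicate 1 and 10.43 in replicate 2, and in the pull-down 11.88 and 13.66. In the miR-27a input it was 10.76 and 10.77, and in the pull-down 12.64 and 13.79. Every pull-down array lay above every input, and the pull-down arrays of replicate 2 were the highest. Both rises passed the test (limma with Benjamini-Hochberg adjustment over all probes, threshold 0.05), with a log2 change of 2.25 ± 0.55 (SE) for miR-23b, an apparent 4.74-fold (adjusted p = 0.023), and of 2.46 ± 0.55 for miR-27a, an apparent 5.49-fold (adjusted p = 0.011). In the miR-23b comparison 0 of the other probes had a larger change, and in the miR-27a comparison 7 had one. The calls were lost without pull-down replicate 2 of the same miRNA, when the change was 1.36 for miR-23b and 1.88 for miR-27a. They were also lost without either input of the same miRNA, although the size of the change hardly moved. It was then 2.34 and 2.15 for miR-23b, and 2.45 and 2.46 for miR-27a. Each of these fits left a single array in a group.

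TRRAP, the scaffold of the TIP60 and SAGA acetyltransferase complexes, followed. Its level was 12.25 and 11.91 in the miR-23b input (replicates 1 and 2) against 13.29 and 14.43 in the pull-down. With miR-27a it was 12.36 and 12.06 in the input against 13.96 and 14.50 in the pull-down. Again no pull-down array overlapped an input. TRRAP rose by 1.78 ± 0.36 with miR-23b (an apparent 3.43-fold, limma, adjusted p = 0.012) and by 2.01 ± 0.36 with miR-27a (an apparent 4.04-fold, adjusted p = 0.0049), with 16 and 49 probes above it. The miR-27a call was kept without any single array. The miR-23b call was lost without input replicate 2 (change 1.61, adjusted p = 0.067).

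**Figure D1:**
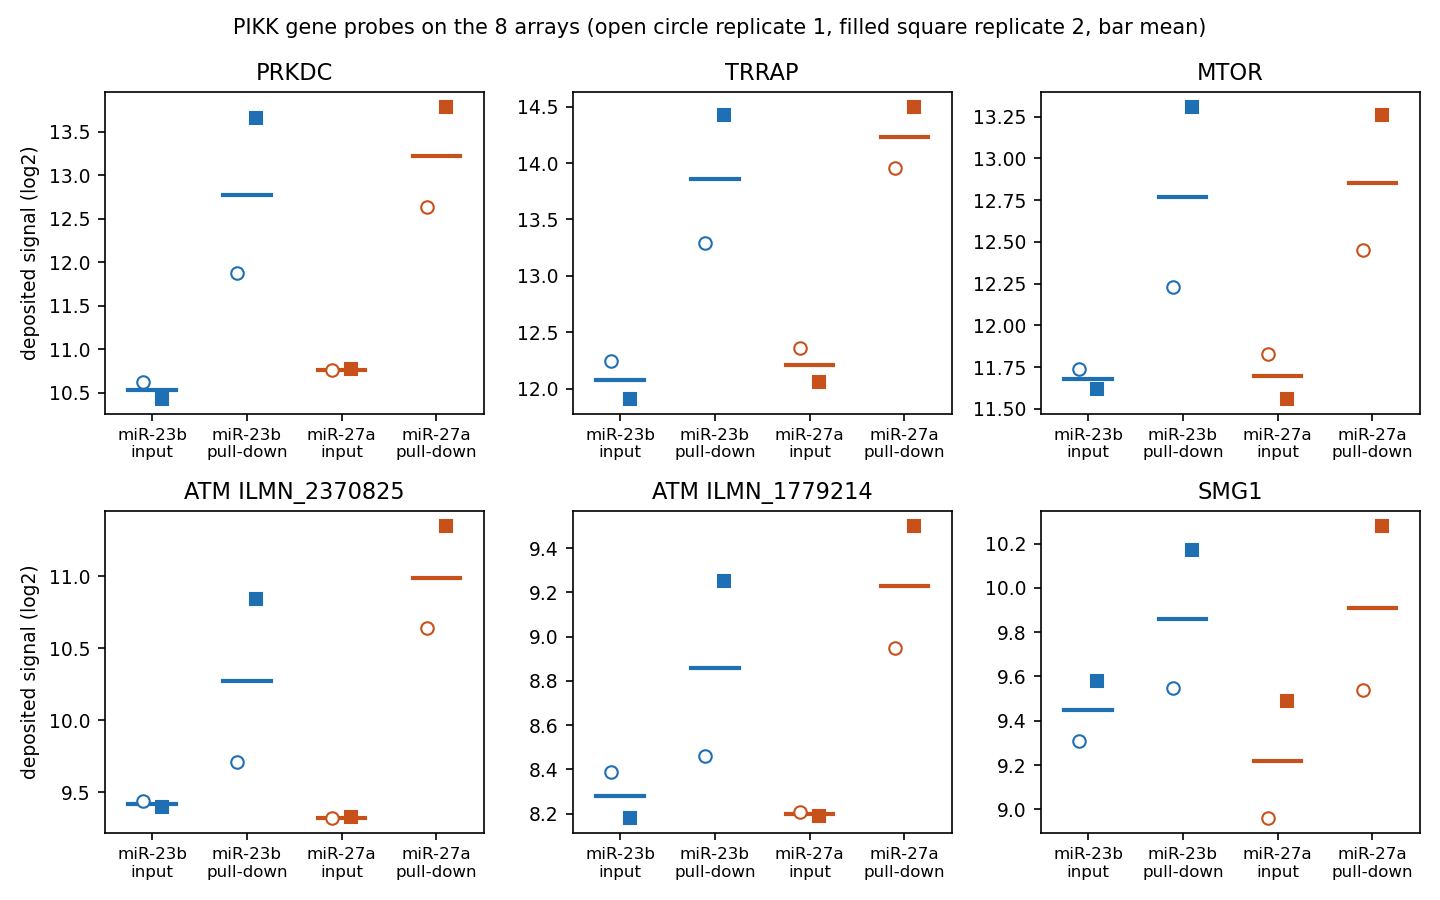
Deposited log2 signal (vertical axis, its range differing by panel) of the 6 PIKK probes in the 4 groups, with replicate 1 as an open circle, replicate 2 as a filled square and the group mean as a bar. For PRKDC the inputs lie between 10.43 and 10.77 and the pull-downs between 11.88 and 13.79, and replicate 2 is the higher pull-down array in every panel.

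MTOR, the kinase of the nutrient-sensing complexes mTORC1 and mTORC2, was bright in the inputs, at 11.74 and 11.62 with miR-23b and 11.83 and 11.56 with miR-27a. The pull-downs had 12.23 and 13.31 with miR-23b, and 12.45 and 13.26 with miR-27a, so that the groups did not overlap. MTOR rose with miR-27a (log2 change 1.16 ± 0.37, limma, adjusted p = 0.042). With miR-23b its change was 1.09 ± 0.37 and did not pass (adjusted p = 0.065, and 0.014 when the replicate number was fitted as a block). The miR-27a call was lost without pull-down replicate 2, when the change was 0.75, and without either input of miR-27a, when it was 1.29 and 1.02. It was also lost without either input of miR-23b, although the change stayed at 1.16. Each of these fits left a single array in a group. Without pull-down replicate 1 the miR-23b change was 1.63 and passed (adjusted p = 0.021).

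ATM, the kinase activated at DNA double-strand breaks, was measured by a pair of probes annotated to the same transcript. Probe ILMN_2370825 read 9.44 and 9.40 in the miR-23b input against 9.71 and 10.84 in the pull-down. With miR-27a it read 9.32 and 9.33 in the input against 10.64 and 11.35. Probe ILMN_1779214 was dimmer, at 8.39 and 8.18 against 8.46 and 9.25 with miR-23b, and at 8.21 and 8.19 against 8.95 and 9.50 with miR-27a. With either probe no pull-down array fell below an input of its miRNA, but in replicate 1 of miR-23b the dimmer probe exceeded its highest input by 0.07 only.

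Both ATM probes rose with miR-27a, by 1.67 ± 0.36 and by 1.03 ± 0.28 (limma, adjusted p = 0.0099 and 0.023). With miR-23b the changes were 0.86 ± 0.36 and 0.57 ± 0.28 and did not pass (adjusted p = 0.12 and 0.17, and 0.022 and 0.058 with the replicate block). Without pull-down replicate 1 of miR-23b both passed, with changes of 1.42 and 0.97 (adjusted p = 0.020 and 0.040). With miR-27a both lost their calls without pull-down replicate 2 (changes 1.31 and 0.75). The dimmer probe lost its call also without either input of miR-27a, although its change stayed at 1.04 and 1.02. Each of these fits left a single array in a group.

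SMG1, which phosphorylates the helicase UPF1 on mRNAs with early stop codons, had the smallest changes. Its level was 9.31 and 9.58 in the miR-23b input and 9.55 and 10.17 in the pull-down, and these groups overlapped by 0.03. With miR-27a it was 8.96 and 9.49 against 9.54 and 10.28, without overlap. The log2 changes of 0.41 ± 0.31 and 0.68 ± 0.31 did not pass (limma, adjusted p = 0.36 and 0.12), although both passed with the replicate block (0.032 and 0.0022). Replicate 2 was higher than replicate 1 in the SMG1 inputs as well, by 0.27 and 0.53, whereas in the inputs of the other members it was at most 0.01 higher. RefSeq names 7 pseudogenes of SMG1, whose transcripts may bind the same probe, so that its signal is uncertain as to source. A probe annotated to one of them, SMG1P1, had changes of -0.13 ± 0.22 and -0.14 ± 0.22 (limma, adjusted p = 0.70 and 0.65). Its level was 7.51 to 8.10, near the array minima of 7.18 to 7.37. These changes therefore do not tell whether the pseudogene followed SMG1.

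Counted together, 2 of the 6 probes rose with miR-23b, where 12.0% of all probes rose, and 5 of 6 with miR-27a, where 17.1% did. No member fell in either. The log2 changes ranged from 0.41 to 2.25 with miR-23b and from 0.68 to 2.46 with miR-27a, with medians of 0.97 and 1.41, against -0.02 and -0.07 over all probes. With the replicate block 5 and 6 probes rose, where 22.1% and 24.2% of all probes did. The counts of the main fit changed when single arrays were left out. Leaving out an array of the same miRNA left a single array in a group, and fewer of all probes then rose as well. Counts of members from such fits are therefore not read as a result about the members.

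Both pull-down arrays lay above both inputs for 5 of 6 probes with miR-23b and for 6 of 6 with miR-27a, as they did for 29.9% and 31.5% of all probes. For 5 of 6 probes, SMG1 being the exception, all 4 pull-downs lay above all 4 inputs (19.5% of all probes). Averaged over the miRNAs, 5 of 6 probes rose in limma (21.9% of all probes), and all 5 kept the call without any single array. These averages were 2.35 ± 0.39 for PRKDC, 1.90 ± 0.25 for TRRAP, 1.26 ± 0.25 and 0.80 ± 0.19 for ATM and 1.12 ± 0.26 for MTOR. For SMG1 the average was 0.55 ± 0.22 (adjusted p = 0.072, and 0.00079 with the replicate block).

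**Figure D2:**
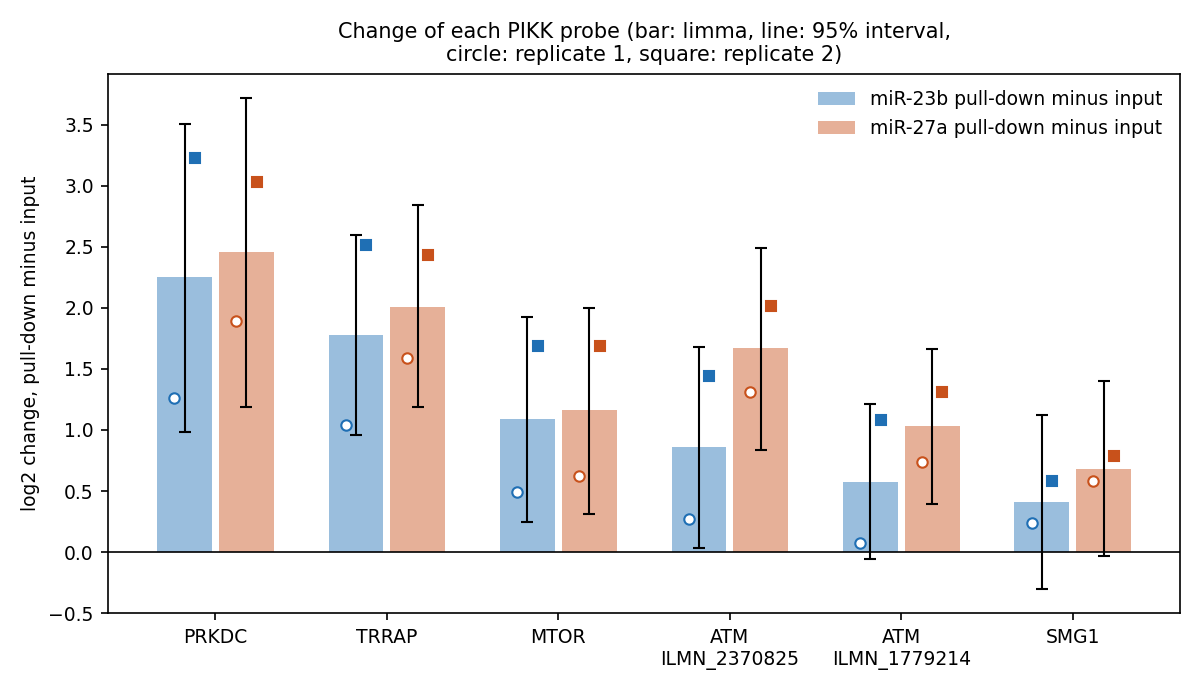
Log2 change (vertical axis) of each PIKK probe in the miR-23b and miR-27a pull-downs, as bars with the 95% interval of the limma fit, and pull-down minus same-numbered input for replicate 1 (circles) and replicate 2 (squares). PRKDC and TRRAP have the largest changes, from 1.78 to 2.46, and each square lies above its circle.

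The changes with both miRNAs were compared directly. Each of the 6 probes, of which 2 are of ATM, had a smaller change with miR-23b than with miR-27a. Over all 14479 probes the difference was above 0 for 6993. Of the member probes 0 passed for the difference in limma, where 0.477% of all probes passed. An unadjusted p under 0.05 was reached by 0 (1 with the replicate block, the brighter ATM probe, adjusted p = 0.26). That probe had the largest difference, -0.81 ± 0.51 (95% interval -1.98 to 0.36, adjusted p = 0.73), and the dimmer ATM probe had -0.45 ± 0.39 (-1.35 to 0.45). For PRKDC the difference was -0.21 ± 0.77 (-2.00 to 1.58), for TRRAP -0.23 ± 0.50 (-1.40 to 0.93), for SMG1 -0.27 ± 0.44 (-1.28 to 0.73) and for MTOR -0.07 ± 0.52 (-1.26 to 1.13). With intervals this wide, differences of more than 1 on the log2 scale in either direction could not be told from 0 for PRKDC and MTOR, nor could lower values with miR-23b of that size for the others.

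The size of the rise differed between replicates. Taking each pull-down against its same-numbered input, PRKDC changed by 1.26 in replicate 1 and 3.23 in replicate 2 with miR-23b, an apparent 2.40-fold and 9.39-fold. With miR-27a it changed by 1.89 and 3.03. The change of TRRAP was 1.04 and 2.52 with miR-23b, and 1.59 and 2.43 with miR-27a. MTOR had 0.49 and 1.69 with miR-23b and 0.62 and 1.69 with miR-27a, so that its replicates of one number were more alike than those of one miRNA. The brighter ATM probe had 0.27 and 1.44, then 1.31 and 2.02, the dimmer 0.07 and 1.08, then 0.74 and 1.31, and SMG1 0.24 and 0.58, then 0.58 and 0.79.

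All 6 probes were thus higher in the pull-down in all 4 pairs, and more so in replicate 2 of both miRNAs, a pattern chosen after the values were seen and shared by 11.6% of all probes. The median change over the 6 probes was 0.38 in replicate 1 and 1.57 in replicate 2 with miR-23b, and 1.03 and 1.86 with miR-27a, whereas the medians over all probes lay between -0.07 and 0.00. The excess of replicate 2 in the PRKDC change, 1.97 with miR-23b and 1.14 with miR-27a, was larger than that of 99.97% and 99.8% of all probes. For SMG1 it was 0.34 and 0.21, larger than that of 86.7% and 74.2%. For PRKDC the excess lay mostly in the pull-down arrays, where replicate 2 minus replicate 1 was 1.78 and 1.15, against -0.19 and 0.01 in the inputs. For TRRAP these values were 1.14 and 0.54 in the pull-downs and -0.34 and -0.30 in the inputs, and for MTOR 1.07 and 0.81 against -0.13 and -0.27, so that lower inputs in replicate 2 made up part of their excess. What differed between the numbered pull-downs is not stated in the labels and was not tested.

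**Figure D3:**
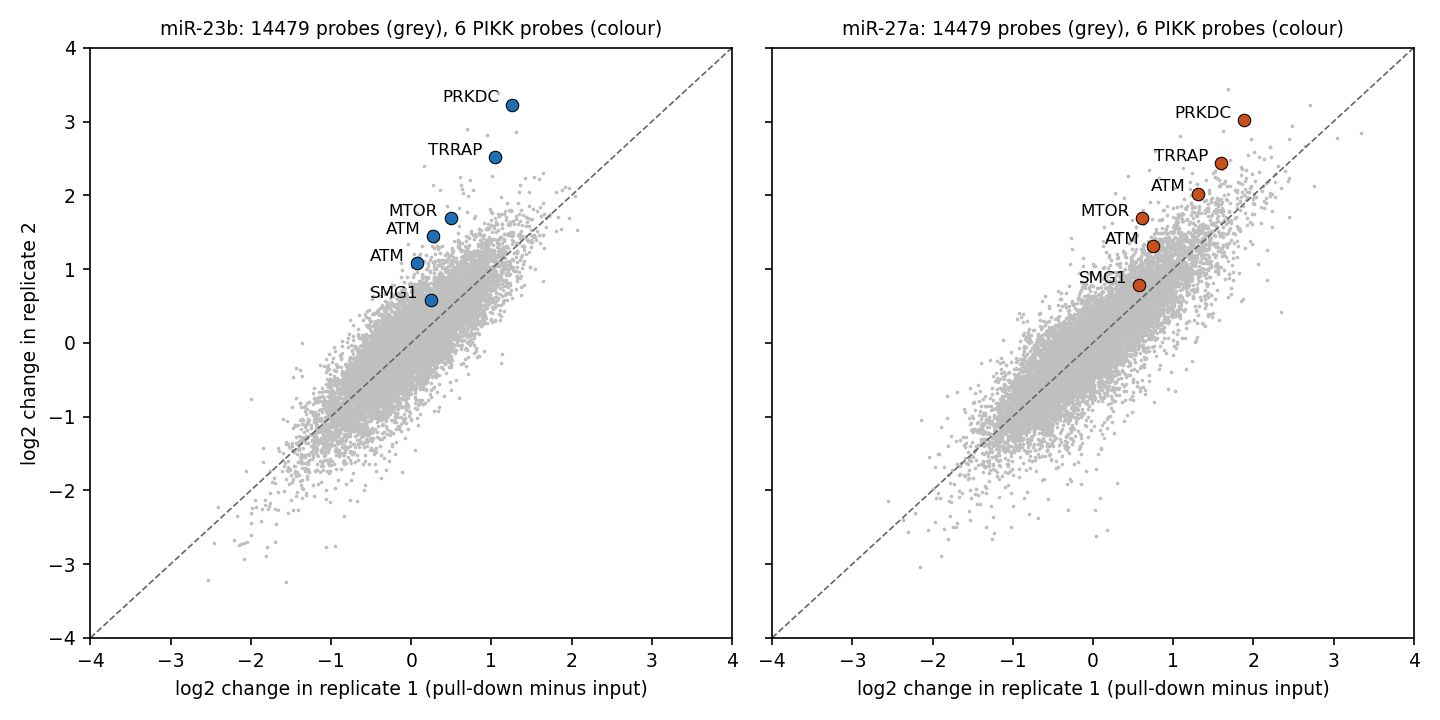
Log2 change of every probe (pull-down minus same-numbered input) in replicate 1 (horizontal axis) against replicate 2 (vertical axis) for miR-23b and miR-27a, with all 14479 probes in grey, the 6 PIKK probes in colour and a dashed line of equal change. All 6 lie above the line in both panels, and PRKDC is at 1.26 and 3.23 with miR-23b.

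The members varied more between replicates than most probes did. The residual standard deviation of the members was 0.75 for PRKDC, 0.47 for TRRAP, 0.49 for MTOR, 0.47 and 0.35 for ATM and 0.40 for SMG1, against a median of 0.17 over all probes, and exceeded that of 90.1% to 99.8% of probes. Their brightness differed, since the mean level of TRRAP was above that of 96.7% of probes and that of the dimmer ATM probe above that of 39.1%.

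Genes with the most similar profile were found by the root mean square distance of log2 values over the 8 arrays, after each profile was centred, with each gene taken by its brightest probe. The points of a profile are 4 pull-downs and 4 inputs, and all genes share these arrays. Nearest to PRKDC were the ubiquitin ligase gene UBR4 (distance 0.25), the Mediator subunit gene MED12 (0.27) and TRRAP (0.33), where the median gene was at 1.32. Nearest to MTOR were FRYL (0.10), LRBA, which acts in vesicle trafficking (0.15), and BIRC6, a giant inhibitor of apoptosis (0.17). ATM was nearest to the complex I subunit gene NDUFS1 (0.17), LRBA (0.17) and BIRC6 (0.18), and TRRAP to GATD1 (0.19), IPP (0.22) and ZNF786 (0.23). SMG1 was nearest to TSC1, a brake on mTORC1 (0.11), TRIM71 (0.11) and GART, an enzyme of purine synthesis (0.12). The median gene lay at 1.04 from TRRAP, 0.69 from MTOR, 0.79 from ATM and 0.47 from SMG1. Among the members themselves, MTOR and ATM were closest (0.25) and PRKDC and SMG1 farthest apart (0.99). Many other genes were nearer, since ATM was at position 40 in order of distance from MTOR, and MTOR at position 24 from ATM. From TRRAP, PRKDC was at position 28.

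The rise of the kinases was set beside that of the genes whose products work with them, each gene by its brightest probe. By this rule 13.4% of all genes rose and 10.9% fell with miR-23b, and 18.5% rose and 16.1% fell with miR-27a (24.5% and 20.2%, then 26.4% and 27.0%, with the replicate block). Of 6 measured partners of PRKDC in end joining, 0 rose and 0 fell with miR-23b in limma (1 and 1 at an unadjusted p under 0.05, 0 and 1 when blocked by replicate), with a median of 0.07, and 1 rose and 1 fell with miR-27a, with a median of -0.22. The Ku genes XRCC5 and XRCC6 are listed here because their products contact PRKDC directly. They had 0.06 ± 0.29 and 0.10 ± 0.34 with miR-23b, and 0.12 ± 0.29 and -0.25 ± 0.34 with miR-27a. The nuclease gene DCLRE1C rose with miR-27a (0.96 ± 0.21, limma, adjusted p = 0.011), and PAXX, which stabilizes the joining complex, fell there by 0.57.

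Among 9 measured genes of ATM signalling, 0 rose and 3 fell with miR-23b (1 rose at an unadjusted p under 0.05, and 3 with the replicate block) and 2 rose and 1 fell with miR-27a (1 rose when probes were averaged), with medians of -0.12 and -0.19. With miR-23b the 3 that fell were 33.3% of the list, where 13.4% of all genes rose and 10.9% fell. With miR-27a those that rose and fell were 22.2% and 11.1%, where 18.5% and 16.1% of all genes did. With the replicate block 33.3% rose in each, against 24.5% and 26.4% of all genes, and 33.3% and 11.1% fell, against 20.2% and 27.0%. NBN and MRE11, of the complex that recruits ATM to breaks, rose with miR-27a (0.87 ± 0.14 and 0.81 ± 0.26). The histone gene H2AX, whose product ATM phosphorylates, fell with both, by 0.51 and 0.85, and the checkpoint kinase gene CHEK2 and TP53BP1 fell with miR-23b, by 0.50 and 0.67. Of 10 genes of ATR signalling, 1 rose and 2 fell with miR-23b, and 2 rose and 2 fell with miR-27a. These counts were 10% and 20% of the list with miR-23b, where 13.4% and 10.9% of all genes rose and fell. With miR-27a they were 20% each, where 18.5% and 16.1% of all genes did. With the replicate block 3 fell with miR-23b (30%, against 20.2% of all genes), and the other counts were unchanged. TOPBP1, the activator of ATR, rose with both, from 9.90 and 9.57 in the miR-23b input to 11.73 and 11.28 in the pull-down (1.77 ± 0.19, adjusted p = 0.0023), and from 9.74 and 9.77 to 11.55 and 11.31 with miR-27a (1.68 ± 0.19, adjusted p = 0.0013). In TOPBP1 pull-down replicate 1 was the higher with both miRNAs. RAD17, which loads the checkpoint clamp, rose with miR-27a (1.17 ± 0.20), while TIPIN fell with both, by 0.84 and 0.83, RPA2 with miR-23b by 0.51 and RPA3 with miR-27a by 0.62.

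Of 20 genes of the mTOR complexes and their regulators, 1 rose and 4 fell with miR-23b, and 1 rose and 5 fell with miR-27a (with the replicate block 4 and 5 rose, and 5 and 8 fell), with medians of -0.01 and -0.14. Those that fell were 20% and 25% of the list, against 10.9% and 16.1% of all genes. Those that rose were 5% in each, against 13.4% and 18.5%. With the replicate block 20% and 25% rose, against 24.5% and 26.4% of all genes, and 25% and 40% fell, against 20.2% and 27.0%. The substrate kinase gene RPS6KB1 rose with both (0.69 ± 0.20 and 1.09 ± 0.20). Of the lysosomal anchor, LAMTOR2 fell by 1.13 and 1.02 and LAMTOR5 by 0.95 and 0.77, and LAMTOR4 fell by 0.79 with miR-27a but not with miR-23b (-0.30 ± 0.13, adjusted p = 0.14). LAMTOR3 of the same complex had 0.15 ± 0.26 and 0.69 ± 0.26 and did not pass (limma, adjusted p = 0.72 and 0.077). The GTPase gene RRAGA fell by 0.66 and 0.68, whereas RRAGB, RRAGC and RRAGD, with changes of -0.30 to 0.43, did not pass. RPTOR, the defining subunit of mTORC1, had 0.48 ± 0.32 and 0.35 ± 0.32.

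Of 24 genes of the TIP60 and SAGA complexes, 2 rose and 2 fell with miR-23b, and 1 rose and 6 fell with miR-27a (6 rose in each with the replicate block, 4 fell with miR-23b, and 2 rose with miR-27a when probes were averaged). The share that fell was 8.33% and 25%, against 10.9% and 16.1% of all genes. The share that rose was 8.33% and 4.17%, against 13.4% and 18.5%. With the replicate block 25% rose in each, close to the 24.5% and 26.4% of all genes. The share that fell was then 16.7% and 29.2%, against 20.2% and 27.0%. KAT2A, the acetyltransferase of SAGA, rose from 11.57 and 11.46 to 12.42 and 12.61 with miR-23b (1.00 ± 0.13, adjusted p = 0.0036) and went from 11.55 and 11.54 to 11.09 and 11.12 with miR-27a (fell by 0.44, adjusted p = 0.035). The difference of 1.44 ± 0.19 passed in limma (adjusted p = 0.027), and KAT2A was the 1 gene of this list that passed for it (2 with the replicate block, the other being ENY2, difference 0.95 ± 0.21, adjusted p = 0.025 there and 0.14 without it). MEAF6 rose with miR-23b (0.97 ± 0.22) and YEATS4 with miR-27a (0.68 ± 0.16). DMAP1 fell with both, by 0.93 and 0.69, as did SUPT3H, by 0.70 and 0.66, and MORF4L2 and ENY2 fell with miR-27a, by 0.93 and 0.69.

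Of 8 partners of SMG1 and factors of nonsense-mediated decay, 0 rose with either miRNA (0 also at an unadjusted p under 0.05 and with the replicate block), 0 fell with miR-23b (2 unadjusted and 2 with the block), and 2 fell with miR-27a, SMG9 by 0.71 and the exon junction protein gene MAGOH by 0.51. UPF1 had -0.10 ± 0.32 and -0.16 ± 0.32. Of 9 genes of the TTT and R2TP complexes and HSP90, which fold and assemble PIKKs, 0 rose with either (0 also at an unadjusted p under 0.05 and with the replicate block), PIH1D1 fell with both, by 0.69 and 0.80, and TTI2 fell with miR-27a, by 0.60 (3 fell with miR-23b with the block). Of 9 measured lipid kinase and subunit genes of the PI3K and PI4K families, 1 rose with miR-23b whereas 2 did with miR-27a, or 11.1% and 22.2% (2 and 4 with the replicate block, and 1 with miR-27a when probes were averaged). Among all genes 13.4% and 18.5% rose, and 10.9% and 16.1% fell. With the replicate block 24.5% and 26.4% of all genes rose, and 20.2% and 27.0% fell. PIK3R1, a regulatory subunit and no kinase, rose with both (1.76 ± 0.23 and 2.05 ± 0.23), and PIK3C2A with miR-27a (0.68 ± 0.13). Medians of these 3 groups lay between -0.21 and 0.10, and no list was tested as a group.

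Genes of other very large proteins were looked at for the same pattern. The list of 107 such genes was written from general knowledge, with the rise of HERC2 and of the PIKKs already known, so that its counts support nothing by themselves. Of the 54 measured, 11 rose and 0 fell with miR-23b, and 18 rose and 0 fell with miR-27a, or 20.4% and 33.3%, against the 13.4% and 18.5% of all genes (with the replicate block 33 and 28 rose, and 0 and 1 fell, and 0 fell at an unadjusted p under 0.05). Their median change was 0.54 and 0.65, against 0.02 and -0.04 over all genes. With the replicate block 61.1% and 51.9% of the list rose, against 24.5% and 26.4% of all genes. ACACA, the acetyl-CoA carboxylase, had the largest change among those that rose with miR-23b (1.98 ± 0.31) and rose by 2.13 ± 0.31 with miR-27a. VPS13D (1.55 ± 0.33 and 1.52 ± 0.33) and VPS13A (1.26 ± 0.28 and 1.49 ± 0.28), which carry lipids between membranes, the chromatin remodeller gene CHD9 (0.95 ± 0.20 and 1.18 ± 0.20), the deubiquitinase gene USP9X (1.13 ± 0.20 and 0.68 ± 0.20), the fibrillin gene FBN2 (1.05 ± 0.15 and 0.93 ± 0.15) and RNF213 (0.58 ± 0.17 and 1.02 ± 0.17) were among those that rose with both.

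The larger change in replicate 2 was also seen outside the kinases, in 41 of 54 of these genes with miR-23b and in 45 of 54 with miR-27a, or 75.9% and 83.3%, against 51.9% and 52.1% of all probes. HERC2, a giant ubiquitin ligase gene, showed it too, with 9.67 and 12.68 in the miR-23b pull-down and 10.54 and 12.70 in that of miR-27a, where inputs lay between 8.58 and 9.30. Its changes of 2.24 ± 0.96 and 2.57 ± 0.96 did not pass (adjusted p = 0.13 and 0.073) but did with the replicate block (0.0064 and 0.0023). Not all giant genes were alike, as TPR of the nuclear pore had -0.26 and -0.52 and talin 1 (TLN1) -0.22 and -0.23, values chosen after they were seen, none of which passed.

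**Figure D4:**
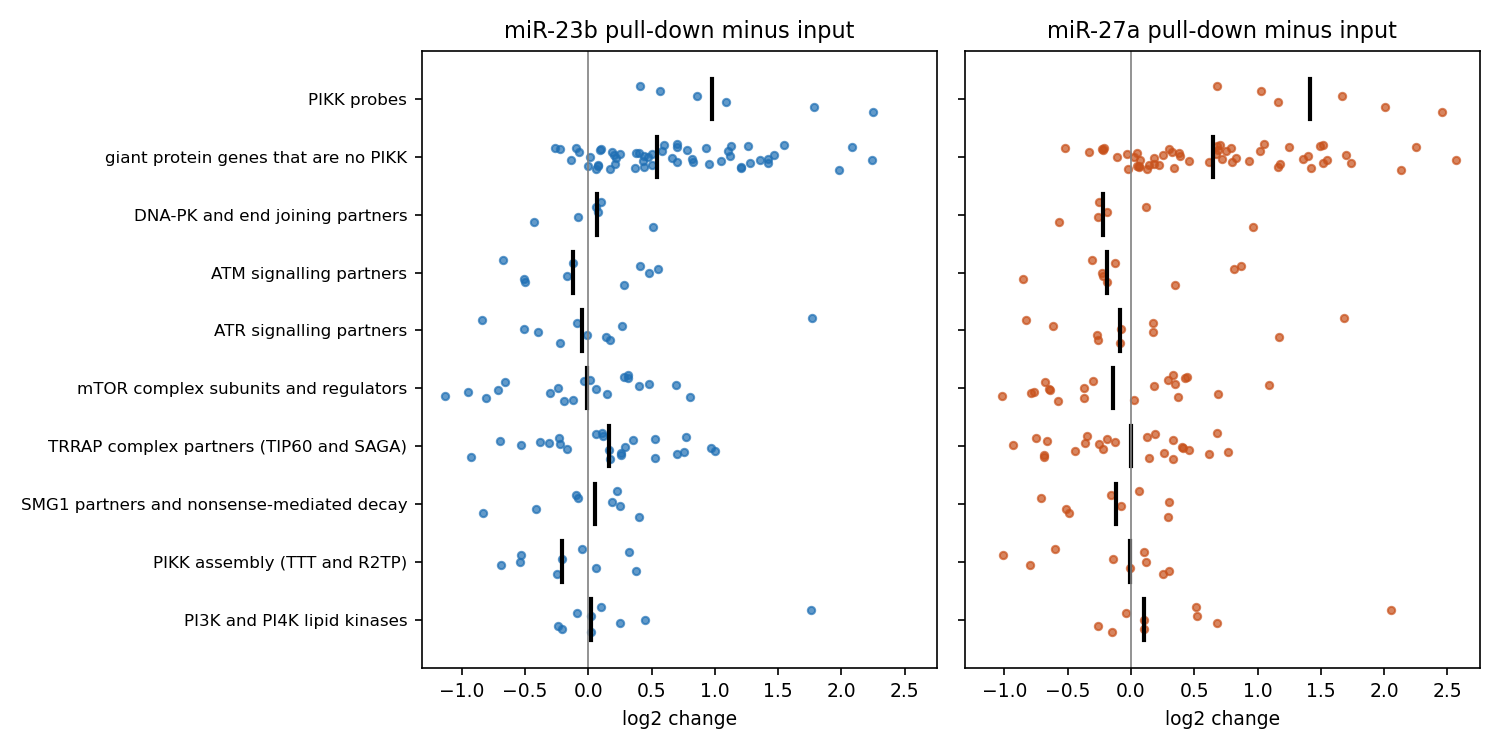
Log2 change (horizontal axis) in each pull-down of the PIKK probes, of genes of other very large proteins, and of each list of partner genes by 1 probe per gene, with points for genes and a bar at the median. The PIKK medians are 0.97 (miR-23b) and 1.41 (miR-27a), while those of the 8 partner and lipid kinase lists lie between -0.22 and 0.16.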

How the data were processed

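Gene expression was profiled with Illumina bead arrays of 1 colour in 4 groups of 2 arrays. The deposited values were read as log2 from their range, and the processing notes of the submitters name lumi 2.2.1. How the authors transformed and normalized the signals and selected probes is not given in the sources used here, so folds are called apparent. A further table, of signals before normalization, was not used, because its column names match no sample, and no detection filter was applied, so that only the number of arrays can be given as a limit to precision. A single gene was annotated to 12008 of the 14479 probes, several genes to 2 and no gene to 2469.

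A linear model with a mean per group was fitted over all 8 arrays with limma 3.58.1 in R 4.3.3 (4 residual degrees of freedom, empirical Bayes), tested two-sided with Benjamini-Hochberg adjustment over all probes. Checked on 1 simulated set, the fit found all of the larger and most of the smaller changes put in, with a share of false calls above the threshold. The simulated errors were independent between arrays, so the check does not cover the shared deviations described next. Same-numbered arrays deviated together (r of 0.34 to 0.80 over 6 pairs of groups). The numbers were therefore taken to pair them in the differences by replicate and in the block fit, although no label states it. The main fit had no term for the replicate number. The alternative fits included one blocked on this number, and the others were median scaling, quantile normalization, an intensity trend, a filter on dim probes, each miRNA alone and each array left out.

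The members and gene lists were chosen with earlier results of these data known. Named were all member probes, in each list up to 3 genes (5 for giant genes) per direction with the smallest p among those that passed, the 3 nearest profiles per member, and HERC2. Direct partners (Ku, RPTOR, UPF1) were added by role. A list of giant genes by protein length could not be made here. It was replaced by one written by hand, without a check of protein length.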

Additional observations from a re-analysis of the deposited data

How the results depend on the processing

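With 2 arrays per group and no detection calls, single arrays carried much weight. The replicate block raised the count of probes that passed from 3513 to 6389 with miR-23b, from 4968 to 7632 with miR-27a and from 69 to 614 for the difference, and that of PIKK probes with miR-23b from 2 to 5. It added calls for MTOR (1.09), the brighter ATM probe (0.86) and SMG1 (0.41) with miR-23b, and for SMG1 with miR-27a (0.68) and in the average (0.55), and it changed no other call of a member. The block fits the same shift between replicate numbers for inputs and pull-downs. For MTOR, replicate 2 minus replicate 1 was 1.07 and 0.81 in the pull-downs but -0.13 and -0.27 in the inputs, which a common shift does not describe. With only the 4 arrays of miR-23b 2117 probes passed. Median scaling, quantile normalization, an intensity trend, leaving out the dimmest 25% of probes and separate fits per miRNA changed no call of a member.

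With each array left out in turn, 1241 to 3022 probes passed with miR-23b, 2573 to 5095 with miR-27a, 5183 to 6042 in the average and 0 to 15 for the difference, and 0 to 5, 1 to 5, 5 to 6 and 0 PIKK probes. Log2 changes with miR-23b lay between 1.36 and 3.13 for PRKDC, 1.21 and 2.35 for TRRAP, 0.55 and 1.63 for MTOR, 0.29 and 1.42 for the brighter and 0.18 and 0.97 for the dimmer ATM probe, and 0.10 and 0.72 for SMG1. With miR-27a they lay between 1.88 and 3.03 for PRKDC, 1.74 and 2.28 for TRRAP, 0.75 and 1.56 for MTOR, 1.31 and 2.02 and 0.75 and 1.30 for ATM, and 0.32 and 1.05 for SMG1. In the average PRKDC lay between 1.91 and 2.79, TRRAP between 1.61 and 2.18, MTOR between 0.86 and 1.39, ATM between 0.98 and 1.55 and between 0.60 and 1.00, and SMG1 between 0.36 and 0.73, which passed without pull-down replicate 1 of either miRNA (adjusted p = 0.040 and 0.034). The difference between the miRNAs, which passed for no member, turned its sign for PRKDC (-1.10 to 0.68), TRRAP (-0.80 to 0.33), MTOR (-0.60 to 0.47) and SMG1 (-0.64 to 0.10), but not for ATM (-1.38 to -0.24 and -0.85 to -0.06). The causes of these shifts were not tested.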
